A study of Mus musculus with 8 samples.

Results

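The 34 genes described here are immediate early and early response genes, which growth factors and stress switch on within minutes to hours without new protein synthesis. They were chosen by gene symbol, and each is represented by the array spot that was brightest on average over all samples. All 34 had a spot among the 24306 genes of the array, and all 34 were among the 17014 genes left after the dimmest 30% were removed.

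The study measured RNA from freshly isolated mouse heart fibroblasts grown in medium with 10% serum. The cells came from wild type mice or from mice labelled Siah knockout, and were left untreated (normoxia) or kept for 6 h at 1% O2 (hypoxia). Each of the 4 groups had 2 biological replicates, hybridised to 1-colour arrays. SIAH proteins are ubiquitin ligases that act on the prolyl hydroxylases which mark HIF-1 alpha for degradation. The labels do not say which Siah gene was deleted, and strain, age and any cell-type-specific driver are not given in the sources used here. Nor do they say whether samples with the same replicate number came from the same cell isolate. Values are log2 intensities, and levels of different spots are not compared. Where a gene's values are listed for a group, replicate 1 precedes replicate 2.

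In fibroblasts, serum and growth factors act through the ERK kinases and serum response factor on the promoters of Fos, the Egr genes and their like. Many of the proteins made are short-lived transcription factors, and others, such as the dual-specificity phosphatases, switch the same kinases off again. Because serum in the medium keeps part of this programme on, cultured fibroblasts express many of these genes without a further stimulus.

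All 12 fibroblast markers were present, with a summed level of 17.7 to 17.9 in every sample, which bright collagen spots such as Col1a1, at 15.3 to 15.6, dominate. At an unadjusted p under 0.05, averaged over oxygen, 3 of the 12 were lower in the knockout and 1 was higher. Of all genes, 9.95% differed in either direction. The log2 fold change was -0.79 for the proteoglycan gene Dcn and 1.05 for the surface marker Thy1. Macrophage and leukocyte markers were also present: 15 of 16 passed the dim-gene filter, and Cd163 did not. The summed log2 level of the 16 was 17.1 to 17.4 in the 4 wild type samples and 16.2 to 16.8 in the 4 knockout samples. At an unadjusted p under 0.05, 13 of the 15 were lower in the knockout, against the same 9.95% of all genes. In bulk RNA, fewer cells of a type and less RNA per cell cannot be told apart. Of 9 heart muscle markers 6 passed the filter, and the defining genes Myh6, Tnni3 and Pln did not. The summed level of the 9 was 14.2 to 14.5 in wild type and 14.5 to 14.9 in the knockout. Their median was only 3.5 to 4.2 over the samples, so a few bright spots dominate that sum. The troponin gene Tnnt2 was 1.85 ± 0.31 higher in the knockout, at 9.51 and 8.54 in wild type normoxia, 9.49 and 8.45 in wild type hypoxia, 10.86 and 10.93 in knockout normoxia, and 10.71 and 10.88 in knockout hypoxia. Siah2, the family member that hypoxia is known to induce, measured 9.04 and 8.71 in wild type normoxia, then 9.55 and 8.96 in hypoxia. In the knockout it measured 6.60 and 7.39 in normoxia but 9.29 and 8.87 in hypoxia, within the wild type range. Where its spot lies relative to the deleted part is not known, so it does not check the labels. Siah1a lay between 8.78 and 9.44 over the 8 samples, Siah1b between 7.89 and 8.81, and Siah3 between 3.64 and 6.60. Among sex-linked transcripts, the Y-linked Eif2s3y was 5.33 log2 units lower in the knockout (adjusted p = 0.000553, limma). Xist was 1.58 ± 0.22 higher, at 3.30 to 4.22 in wild type samples and 4.89 to 5.37 in knockout samples. Kdm5d, at -0.09, and Uty, at -0.41, differed less. The genotype groups thus differed in Eif2s3y and Xist too. Whether they differed in sex, and its part in the genotype comparisons, was not tested. Of 15 HIF target genes, 13 were higher in hypoxia at an unadjusted p under 0.05, against 3.76% of all genes in either direction. The median log2 fold change was 1.60 over the 15. Among them were the mitophagy receptor gene Bnip3 at 2.55, the oxidoreductase gene Ero1a at 1.31 and the lactate exporter gene Slc16a3 at 2.25. Before the group comparisons, the early response genes showed that the replicates of a group were not alike. For Egr2, Dusp5, Fosl1 and Egr1 the replicates of each group lay farther apart than the means of any 2 groups differed, as described after the comparisons.

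Few of these genes differed between hypoxia and normoxia by more than the replicates did. None of the 34 passed an adjusted p of 0.05 in either genotype or averaged over both, and among all genes 0.0% did so in wild type, 0.0% in the knockout and 0.0% in the average (limma, Benjamini-Hochberg adjustment over 17014 genes). At an unadjusted p under 0.05, 4 of the 34 differed in the average over genotypes, all of them higher in hypoxia, against 3.76% of all genes in either direction. They were Sik1, Ier3, Atf3 and Fos. In wild type 2 of 34 did so, against 3.62% of all genes, and in the knockout 2 of 34, against 2.6%. In both genotypes these were Sik1 and Ier3. The other 30 genes lay between -0.67 and 0.54 in the average. In wild type the count was 4 without replicate 1 of either oxygen condition. In the knockout it was 4 without replicate 2 of either condition and 1 without replicate 1 of either. The count of 4 in the average was 2 without knockout hypoxia replicate 1, without knockout normoxia replicate 1 or without wild type normoxia replicate 2.

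Sik1, a salt-inducible kinase that restrains CREB-driven transcription, had the largest difference. Its level was 6.22 and 6.18 in wild type normoxia, 8.19 and 8.41 in wild type hypoxia, 6.75 and 6.16 in knockout normoxia, and 8.33 and 8.57 in knockout hypoxia. All 4 hypoxia samples were above all 4 normoxia samples, by more than the replicates of any group differed. The log2 fold change was 2.10 ± 0.25 (moderated SE) in wild type and 1.99 ± 0.25 in the knockout. Averaged over genotypes it was 2.05 ± 0.18, or 4.14-fold, with an unadjusted p of 1.8e-05 and an adjusted p of 0.147 in limma. By unadjusted p, Sik1 stood at rank 2 of the 17014 genes in that comparison. Its adjusted p was 0.0309 when the variance prior was allowed to follow the intensity and 0.0336 when same-numbered samples of a genotype were treated as sharing a culture.

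Ier3, an early response protein that modulates apoptosis and ERK signalling, came next. It measured 10.72 and 9.92 in wild type normoxia, 11.81 and 12.39 in wild type hypoxia, 10.53 and 11.03 in knockout normoxia, and 12.50 and 11.86 in knockout hypoxia. Again no hypoxia sample overlapped a normoxia sample, although replicates differed by up to 0.80. The log2 fold change was 1.59 ± 0.28 in the average, with an unadjusted p of 0.0011 and an adjusted p of 0.518. It was 1.78 ± 0.39 in wild type and 1.40 ± 0.39 in the knockout.

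**Figure D1:**
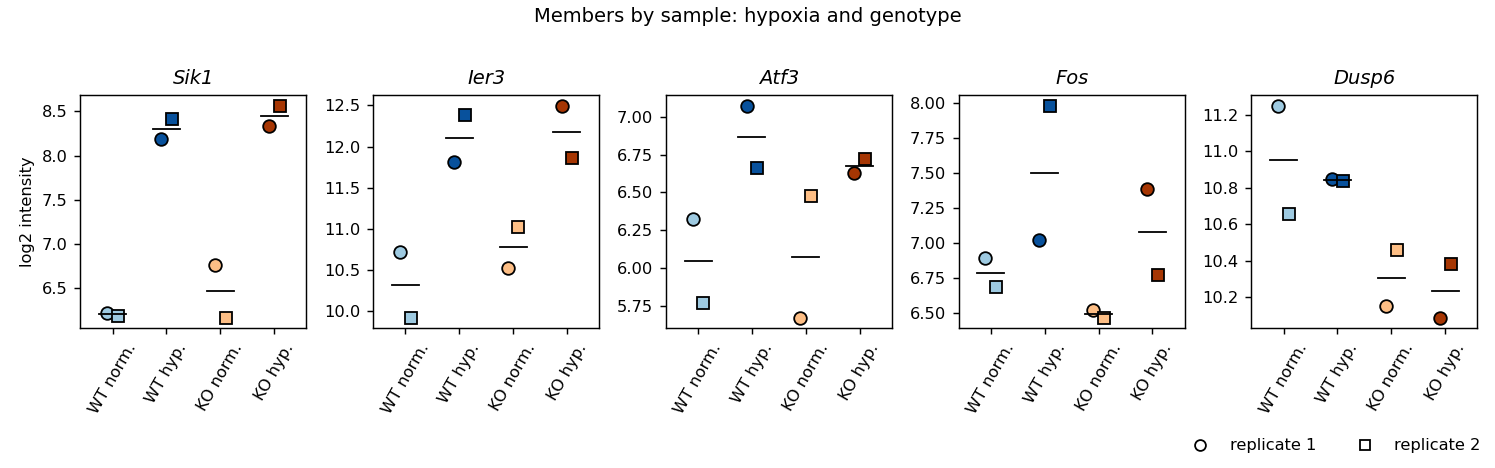
Log2 intensity of Sik1, Ier3, Atf3, Fos and Dusp6 in each sample, for the 4 groups of wild type (WT) or knockout (KO) cells in normoxia or hypoxia. Circles are replicate 1, squares replicate 2 and lines group means. The Sik1, Ier3 and Atf3 hypoxia samples lie above all their normoxia samples, and the Dusp6 knockout samples lie below all wild type samples.

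Atf3 encodes a stress-induced bZIP factor of the ATF/CREB family. Its levels were 6.33 and 5.77 in wild type normoxia, 7.07 and 6.66 in wild type hypoxia, 5.67 and 6.48 in knockout normoxia, and 6.63 and 6.72 in knockout hypoxia. The hypoxia samples were higher without overlap, but the smallest gap was much narrower than the spread within knockout normoxia. The average log2 fold change was 0.71 ± 0.24, with an unadjusted p of 0.024 and an adjusted p of 1.00.

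Fos, the AP-1 subunit that dimerises with the Jun proteins, measured 6.89 and 6.68 in wild type normoxia, 7.02 and 7.98 in wild type hypoxia, 6.52 and 6.46 in knockout normoxia, and 7.39 and 6.77 in knockout hypoxia. Knockout hypoxia replicate 2 lay below wild type normoxia replicate 1, so the groups overlapped. Within each genotype, both hypoxia samples were above both normoxia samples. The average log2 fold change was 0.65 ± 0.26, with an unadjusted p of 0.0432 and an adjusted p of 1.00. Sik1, Ier3 and Atf3 were the 3 of 34 genes whose 4 hypoxia samples were all above the 4 normoxia samples, against 1.35% of all genes. In the other direction, 0 of 34 were without overlap, against 0.817% of all genes.

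Promoter sequences of 26 of the 34 genes were in the RefSeq table used, as the 250 bases before the first listed transcription start on GRCm38.p6. Those of Ier3, Atf3 and Fos are shown because these genes had 3 of the 4 lowest unadjusted p-values in the average hypoxia comparison. Sik1, which had the lowest, was not among the 26. Capitals mark the hypoxia response element core ACGTG in Ier3, and in Atf3 and Fos the cyclic AMP response element core TGACG, which reads CGTCA where it lies on the other strand. Ier3 lies at chr17:35821463-35821712 on the plus strand, Atf3 at chr1:191183334-191183583 on the minus strand and Fos at chr12:85473640-85473889 on the plus strand.
Ier3: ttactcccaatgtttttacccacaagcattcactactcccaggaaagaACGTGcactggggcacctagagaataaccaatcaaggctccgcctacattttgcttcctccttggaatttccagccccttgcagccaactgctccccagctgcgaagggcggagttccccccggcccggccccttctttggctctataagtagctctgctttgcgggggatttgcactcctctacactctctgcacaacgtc
Atf3: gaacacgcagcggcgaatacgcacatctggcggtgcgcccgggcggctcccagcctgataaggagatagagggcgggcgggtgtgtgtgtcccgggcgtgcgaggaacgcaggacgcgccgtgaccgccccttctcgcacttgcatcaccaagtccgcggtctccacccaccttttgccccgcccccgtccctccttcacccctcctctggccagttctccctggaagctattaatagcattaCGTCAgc
Fos: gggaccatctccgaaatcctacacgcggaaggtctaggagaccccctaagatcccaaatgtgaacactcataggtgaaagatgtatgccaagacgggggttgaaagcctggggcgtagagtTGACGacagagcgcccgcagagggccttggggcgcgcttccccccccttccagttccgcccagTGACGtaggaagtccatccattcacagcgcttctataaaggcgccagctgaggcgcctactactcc
Counted from the start, with -1 the base before it, the ACGTG of Ier3 began at -202, the Atf3 match at -7 and those of Fos at -129 and -66. On either strand, ACGTG was found in 11 of the 26 promoters (42.3%) and in 16.6% of 27025 promoters. TGACG was in 12 of the 26 (46.2%) and in 17.9% of all. The AP-1 motif TGANTCA was in 0 of the 26 and in 6.87% of all. These matches describe the letters in these windows, and no binding was measured.

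The remaining AP-1 and bZIP genes differed less with oxygen. Jun was 0.32 higher on average, Fosl2 0.23, Jund 0.20 and Junb 0.16, and Fosl1 was 0.29 ± 0.83 higher. Fosb, a FOS relative measured near the dim end of the array, gave -0.15. Maff, a small MAF protein that lacks a transactivation domain, was 0.54 ± 0.49 higher, and its replicates were up to 2.02 apart. Of the 9 genes in this group, 8 had an average log2 fold change above 0, but only Atf3 and Fos had an unadjusted p under 0.05.

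The EGR zinc finger factors gave no such difference. Egr1 was -0.21 ± 0.67 and Egr2 0.00 ± 1.38 in the average. Egr3 was dim, at 4.63 and 3.89 in wild type normoxia, 3.15 and 2.90 in wild type hypoxia, 3.29 and 4.38 in knockout normoxia, and 3.07 and 4.39 in knockout hypoxia. Its log2 fold change in wild type was -1.23 ± 0.56 (unadjusted p = 0.0674, adjusted p = 1.00). Several of these values lie below the 3.39 that a gene's mean had to exceed to be tested, and the deposited values carry no detection call.

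Among the orphan nuclear receptors of the NR4A family, which need no known ligand, the average fold changes were -0.23 for Nr4a1, 0.07 for Nr4a2 and 0.01 for Nr4a3. The Krüppel-like factors were closer still, from -0.07 for Klf2 to 0.07 for Klf10, with Klf4 at 0.04 and Klf6 at -0.03. Myc, the growth-promoting transcription factor, was -0.35 ± 0.50. Ier2 gave -0.25, Csrnp1, a cysteine and serine rich nuclear protein, -0.29, and Ier5 -0.51 ± 0.26. Ier5 measured 11.74 and 11.90 in wild type normoxia, 11.68 and 11.36 in wild type hypoxia, 11.63 and 12.09 in knockout normoxia, and 10.63 and 11.67 in knockout hypoxia. Knockout hypoxia replicate 1 was its lowest sample, and its unadjusted p was 0.101.

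The dual-specificity phosphatases, which remove phosphate from ERK and related kinases, lay between -0.32 for Dusp1 and 0.30 for Dusp4. Dusp2 gave -0.10, Dusp5 -0.17 and Dusp6 -0.09. Zfp36, which binds AU-rich elements and promotes mRNA decay, was -0.39 ± 0.33. The GADD45 stress proteins gave 0.15 for Gadd45a, 0.22 for Gadd45b and -0.24 for Gadd45g. Over all 34 genes the median log2 fold change was 0.01, beside -0.01 for all genes, and 18 of 34 were above 0, against 46.8% of all genes.

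**Figure D2:**
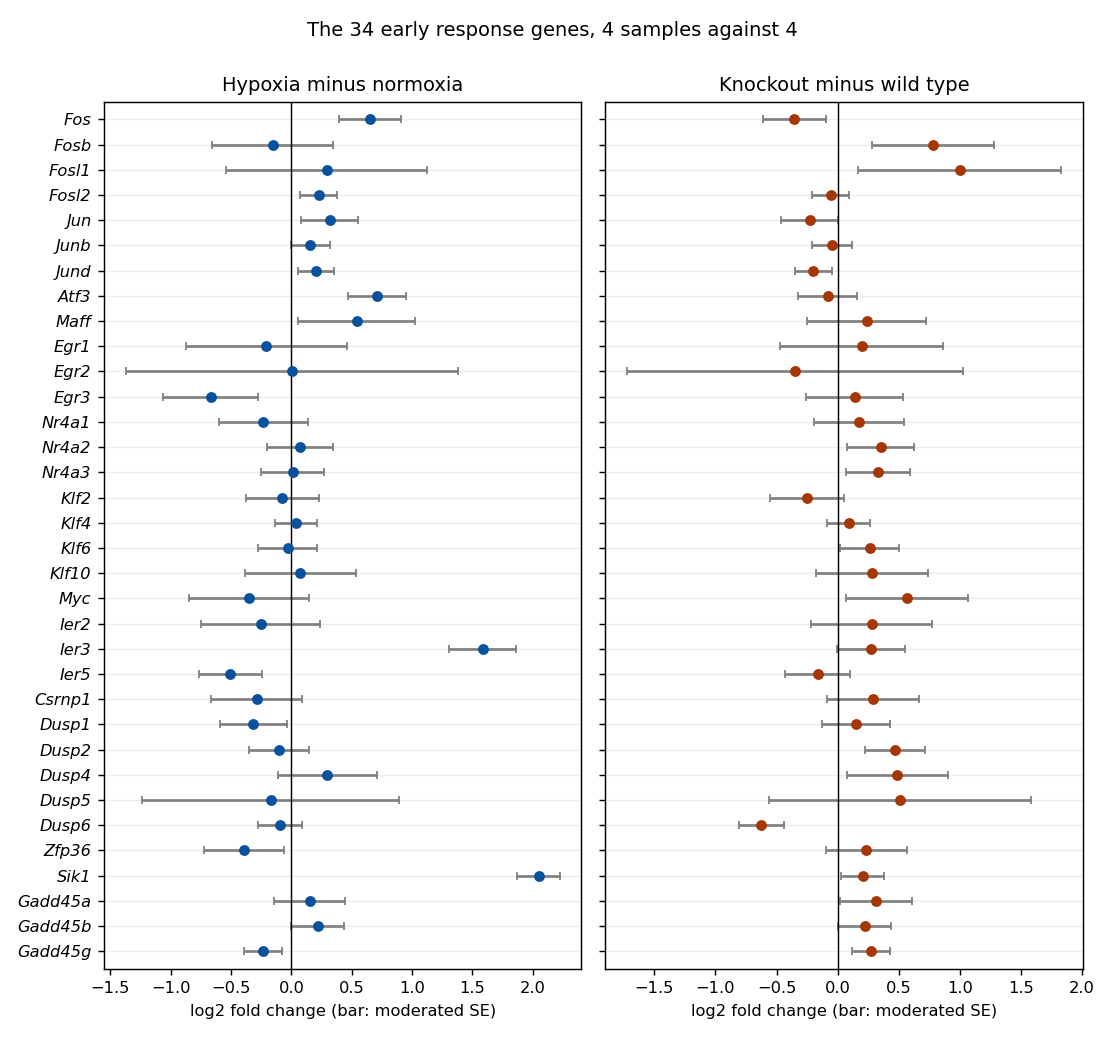
Log2 fold change with its moderated standard error (bars) for each of the 34 genes, in hypoxia minus normoxia (left) and knockout minus wild type (right), 4 samples against 4. Sik1 (2.05) and Ier3 (1.59) stand apart on the left, and the widest bars are those of Egr2, Dusp5 and Fosl1.

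Between genotypes, the ERK phosphatase gene Dusp6 differed most for its error. Dusp6 measured 11.25 and 10.65 in wild type normoxia, 10.85 and 10.83 in wild type hypoxia, 10.15 and 10.46 in knockout normoxia, and 10.09 and 10.38 in knockout hypoxia. Every knockout sample was below every wild type sample. The log2 fold change of knockout against wild type was -0.63 ± 0.18 averaged over oxygen, or 0.648-fold, with an unadjusted p of 0.0134 and an adjusted p of 0.315. It was -0.65 ± 0.26 in normoxia (unadjusted p = 0.0459) and -0.61 ± 0.26 in hypoxia (unadjusted p = 0.0562). The macrophage markers, Dcn, Eif2s3y and the smooth muscle gene Myh11 (-1.42 ± 0.25) were also lower in the knockout, and Tnnt2, Thy1 and Xist higher. Among 8 endothelial markers, Emcn was 1.26 ± 0.19 higher and Vwf was at -0.56. The part of these genes and markers in the Dusp6 difference was not tested.

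None of the 34 passed an adjusted p of 0.05 between genotypes, while 0.00588% of all genes did in normoxia, 0.00588% in hypoxia and 0.047% in the average. At an unadjusted p under 0.05 the counts were 1 of 34 in normoxia, against 6.48% of all genes, 0 of 34 in hypoxia, against 6.24%, and 1 of 34 in the average, against 9.95%. Dusp6 was the gene counted in both cases. It was also the 1 gene of 34 whose knockout samples were all lower, against 4.85% of all genes, and 0 of 34 had them all higher, against 3.96%. Other genes had larger fold changes but errors to match. Fosl1, an AP-1 subunit that ERK signalling induces, was 1.00 ± 0.83 higher in the knockout, but 0.27 without wild type normoxia replicate 2 and 1.72 without wild type normoxia replicate 1. Fosb was 0.78 ± 0.50 higher, from 5.19 and 3.75 in wild type normoxia, 4.57 and 3.75 in wild type hypoxia, 4.79 and 5.39 in knockout normoxia, and 4.25 and 5.94 in knockout hypoxia, so its groups overlapped. The Fosb difference was 0.36 without knockout hypoxia replicate 2 and 1.20 without knockout hypoxia replicate 1. Smaller differences were those of Myc, 0.57 ± 0.50, Dusp5, 0.51 ± 1.07, Dusp4, 0.49, and Dusp2, 0.47 ± 0.25. Of the 34, 24 were above 0 in the average, against 54.0% of all genes, and the median was 0.23 beside 0.03 for all genes. Single libraries decide these values. The average median of 0.23 was 0.05 without wild type hypoxia replicate 2 and 0.38 without knockout normoxia replicate 1. In normoxia the median was 0.22, and it was -0.16 without knockout normoxia replicate 2 and -0.12 without wild type normoxia replicate 2. The count of 1 in normoxia was 2 without wild type normoxia replicate 2 and 0 without any 1 of 6 other libraries, all but knockout normoxia replicate 1. In the average, the count was 3 without wild type hypoxia replicate 1 and 2 without either wild type hypoxia replicate 2, wild type normoxia replicate 2, knockout normoxia replicate 1 or either knockout hypoxia replicate.

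The hypoxia response did not differ detectably between genotypes for any of the 34. By adjusted p, 0 of 34 differed, as did 0.0% of all genes, and 0 of 34 had an unadjusted p under 0.05, against 2.45% of all genes. Egr3 had the largest difference, with a response 1.12 ± 0.79 higher in the knockout (unadjusted p = 0.202), a value that ran from 0.46 without knockout hypoxia replicate 2 to 1.79 without knockout hypoxia replicate 1. For Nr4a3 the difference was 0.92 ± 0.52 (unadjusted p = 0.126), running from 0.41 without knockout hypoxia replicate 1 to 1.44 without knockout hypoxia replicate 2. Nr4a3 measured 4.92 and 4.56 in wild type normoxia, 4.52 and 4.06 in wild type hypoxia, 4.65 and 4.57 in knockout normoxia, and 5.59 and 4.57 in knockout hypoxia. Knockout hypoxia replicate 1 alone was high. Nr4a1 gave 0.58 ± 0.74 (0.02 without knockout hypoxia replicate 2 and 1.14 without knockout hypoxia replicate 1), from 9.18 and 8.77 in wild type normoxia, 8.86 and 8.05 in wild type hypoxia, 8.36 and 9.37 in knockout normoxia, and 8.36 and 9.48 in knockout hypoxia. For Sik1 the difference was -0.11 ± 0.35 and for Ier3 -0.38 ± 0.56, so for both genes the difference was smaller than its standard error.

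The largest differences in these genes were between replicates. In wild type, replicate 1 was the higher sample for 28 of the 34 genes in normoxia and for 24 in hypoxia. In the knockout the order was turned: replicate 2 was higher for 26 genes in normoxia and for 25 in hypoxia. Over all genes, replicate 1 was higher for 48.2% and 46.1% in wild type and for 53.7% and 51.4% in the knockout. The median absolute difference between replicates was 0.554, 0.705, 0.604 and 0.641 for the 34 genes in wild type normoxia, wild type hypoxia, knockout normoxia and knockout hypoxia, beside 0.351, 0.325, 0.320 and 0.332 for all genes.

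Egr2, a zinc finger factor induced by ERK signalling, had the widest gap. It measured 10.26 and 7.26 in wild type normoxia, 10.29 and 7.35 in wild type hypoxia, 6.50 and 10.44 in knockout normoxia, and 6.55 and 10.27 in knockout hypoxia. There were 4 samples near 10.3 and 4 near or below 7.35, with each group holding 1 of each kind. Replicates were 7.99-fold apart in wild type normoxia, 7.68-fold in wild type hypoxia, 15.3-fold in knockout normoxia and 13.2-fold in knockout hypoxia. Yet between normoxia and hypoxia samples of the same genotype and number, Egr2 moved by only 0.03, 0.09, 0.05 and -0.17.

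Dusp5, a nuclear phosphatase of ERK, split the same way. It was at 10.06 and 6.77 in wild type normoxia, 9.41 and 6.95 in wild type hypoxia, 7.70 and 10.04 in knockout normoxia, and 7.55 and 9.96 in knockout hypoxia. Its replicates were between 5.08- and 9.78-fold apart. Fosl1 measured 9.36 and 6.45, 9.07 and 7.45, 7.97 and 9.97, and 8.51 and 9.88 in the same order of groups. Egr1, the founding EGR factor, measured 9.72 and 7.81, 9.11 and 8.02, 8.12 and 9.81, and 7.87 and 9.63. In each of these genes the lowest of the 4 high samples was above the highest of the 4 low ones.

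**Figure D3:**
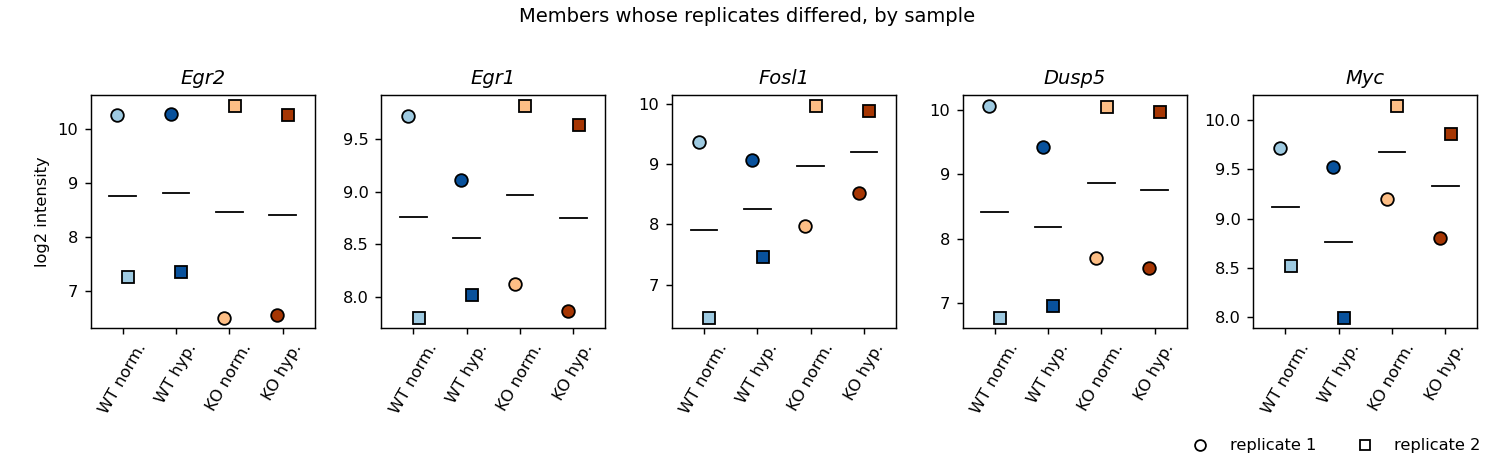
Log2 intensity of Egr2, Egr1, Fosl1, Dusp5 and Myc in each sample, for wild type (WT) and knockout (KO) cells in normoxia and hypoxia. Circles are replicate 1, squares replicate 2 and lines group means. In wild type replicate 1 is the higher sample and in the knockout replicate 2, in normoxia and in hypoxia.

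Egr2, Dusp5, Fosl1 and Egr1 were the 4 of 34 genes (11.8%) whose replicates differed by over 1 log2 unit in all 4 groups in that direction, against 0.558% of all genes. With a limit of 0.5 there were 11 of 34 (32.4%), against 2.78% of all genes. The other 7 were Myc, Ier2, Klf10, Dusp4, Csrnp1, Fosb and Nr4a2. In the opposite direction there were 0 of 34, against 3.08% of all genes. These limits and this direction were set after the values had been seen, so the counts are a description. Myc measured 9.72 and 8.51 in wild type normoxia, 9.53 and 7.99 in wild type hypoxia, 9.20 and 10.15 in knockout normoxia, and 8.81 and 9.86 in knockout hypoxia. Ier2 differed by 1.38, 1.17, -0.82 and -1.35 (replicate 1 minus replicate 2), Dusp4 by 1.17, 1.00, -0.87 and -0.91, and Klf10, a TGF-beta-induced factor, by 1.29, 0.90, -1.33 and -0.86.

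Not every gene took part. Gadd45a, a stress protein that p53 induces, went the other way, by -0.92, -0.64, 0.34 and 0.69. Dusp1 did so too, by -0.49, -0.48, 0.89 and 0.58, as did Klf4, a factor known for its part in reprogramming, by -0.39, -0.42, 0.29 and 0.24. Sik1, Ier3 and Fos, which were among the genes higher in hypoxia, did not share the pattern. Atf3, also among them, had the direction of Egr2 in all 4 groups, by 0.56, 0.41, -0.80 and -0.09. Sik1 replicates were 0.04, -0.23, 0.60 and -0.23 apart. Same-numbered samples differed by 1.97, 2.23, 1.58 and 2.41 in Sik1 between normoxia and hypoxia, and by 1.09, 2.46, 1.96 and 0.83 in Ier3.

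**Figure D4:**
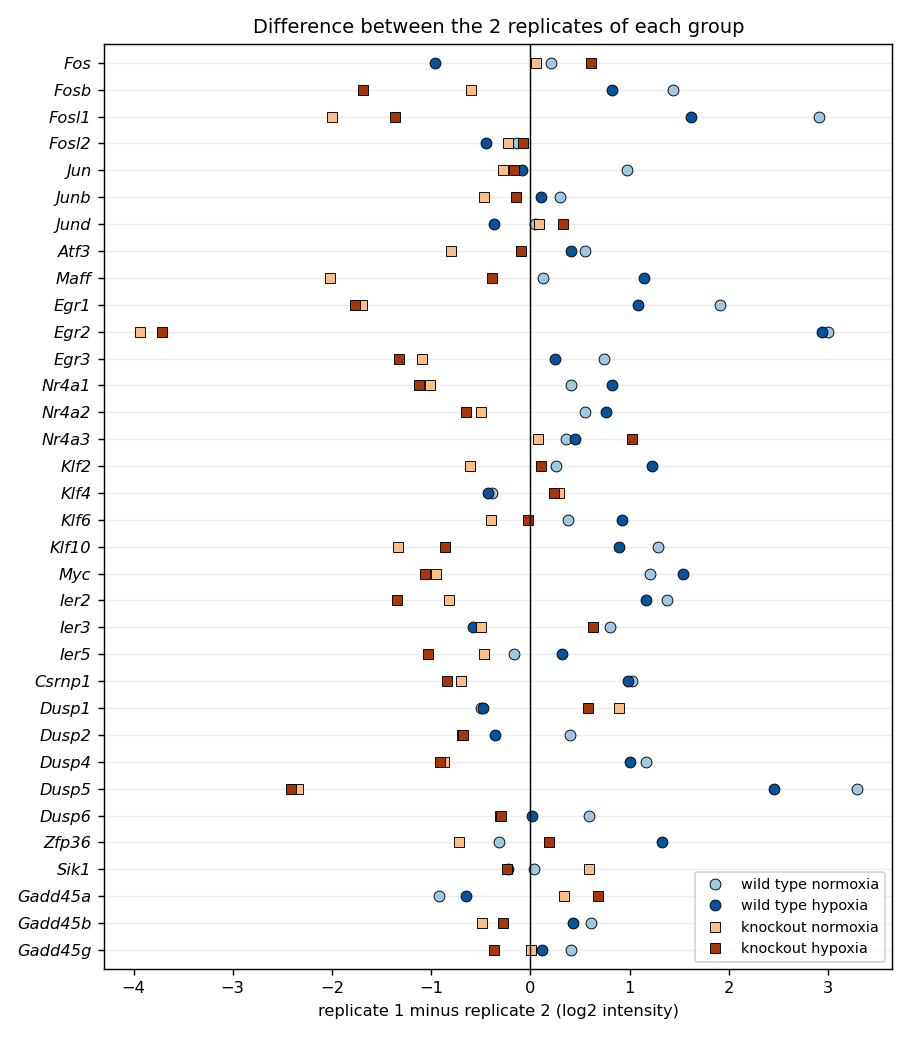
Difference between replicate 1 and replicate 2 (log2 intensity) in each of the 4 groups, for the 34 genes. Circles are wild type and squares knockout groups. For Egr2, Dusp5, Fosl1 and Egr1 the wild type points lie beyond 1 and the knockout points beyond -1, while Gadd45a, Dusp1 and Klf4 lean the other way.

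The promoters of Egr2 and Dusp5 are shown for this pattern and were chosen after their values had been seen. Fosl1 was not among the 26 genes with a promoter sequence, and no promoter is shown for Egr1. Capitals in Egr2 mark ACGTG, which is found there on both strands. In Dusp5 they mark a pair of CArG boxes, the motif that serum response factor binds, and a stretch in which ACGTG and TGACG overlap, both read on the other strand. Egr2 lies at chr10:67535249-67535498 on the plus strand, before the first of its 5 listed starts, and Dusp5 at chr19:53528895-53529144 on the plus strand.
Egr2: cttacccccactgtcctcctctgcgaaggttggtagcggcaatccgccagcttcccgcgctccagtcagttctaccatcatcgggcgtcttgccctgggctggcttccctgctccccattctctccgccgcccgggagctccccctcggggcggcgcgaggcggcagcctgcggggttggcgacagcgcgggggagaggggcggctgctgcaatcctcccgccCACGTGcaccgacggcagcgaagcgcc
Dusp5: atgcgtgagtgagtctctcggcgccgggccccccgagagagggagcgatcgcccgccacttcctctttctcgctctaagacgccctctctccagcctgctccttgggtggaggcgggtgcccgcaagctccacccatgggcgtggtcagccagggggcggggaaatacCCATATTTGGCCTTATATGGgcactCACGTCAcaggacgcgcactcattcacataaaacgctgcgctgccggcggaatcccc
The adjoining CArG boxes of Dusp5 span positions -82 to -63. A CArG box was found in 2 of the 26 promoters (7.69%), those of Dusp5 and Zfp36, and in 1.4% of all promoters. Only exact matches within the 250 bases before the start were counted, so boxes farther upstream were not looked for.

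Other early response genes were described in the same way. Of 40 listed, 39 were tested, and Egr4 was too dim. In the average hypoxia comparison 3 were higher and 1 lower at an unadjusted p under 0.05, against 3.76% of all genes in either direction. Their median was -0.04 over the 39. The circadian repressor gene Bhlhe40 was higher by 1.42 ± 0.23, Nfil3, a bZIP repressor, by 0.60, and Rnd3 by 0.83, while Ier5l was at -0.44. Between genotypes 2 were higher and 1 was lower, against 9.95% of all genes in either direction. The higher ones were Mafk, by 0.43 (adjusted p = 0.263, limma), and the matricellular gene Ccn1, by 0.61 (adjusted p = 0.439, limma). The median between genotypes was -0.03 and 17 of the 39 were above 0, where the 34 had a median of 0.23. By the limit of 0.5, 11 of the 39 differed between replicates in the direction of Egr2 and 2 in the opposite one, beside 2.78% and 3.08% of all genes. Arc, an activity-regulated early gene best known from neurons, measured 9.07 and 4.41 in wild type normoxia, 8.39 and 4.09 in wild type hypoxia, 4.61 and 8.88 in knockout normoxia, and 3.57 and 8.77 in knockout hypoxia. Ptgs2, the inducible cyclooxygenase, measured 11.65 and 7.94, 11.72 and 7.71, 9.01 and 12.46, and 8.94 and 12.40 in the same order. Both split the samples as Egr2 did.

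Kinases and factors upstream formed another list. Of 23 genes of the serum response and ERK pathway, 19 were tested and 4 were not analysed here. None of the 19 had an unadjusted p under 0.05 for hypoxia in the average, with a median of 0.02, and Map2k1, the kinase of ERK, was 0.47 higher (adjusted p = 1.00, limma). Rps6ka1, a kinase that ERK activates, was 1.23 ± 0.29 lower in the knockout (adjusted p = 0.215, limma). Srf, the serum response factor, measured 11.23 and 9.90 in wild type normoxia, 10.73 and 9.36 in wild type hypoxia, 10.20 and 11.33 in knockout normoxia, and 9.89 and 11.19 in knockout hypoxia. It was the 1 gene of the 19 that split as Egr2 did by the limit of 0.5. Among 14 further ERK feedback genes, 0 had an unadjusted p under 0.05 for hypoxia, with a median of -0.06. Between genotypes 2 were higher, Dusp14 by 0.79 and the receptor-signalling inhibitor Spry4 by 0.60, and 2 were lower. Over all genes, 9.95% differed in that comparison at an unadjusted p under 0.05. The adjusted p was 0.236 for Dusp14 and 0.254 for Spry4 (limma). Etv4 and Rasa1 split between replicates as Egr2 did, and 1 gene split the opposite way.

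Some cell type markers moved with the replicate split, and others did not. The summed level of the 16 macrophage and leukocyte markers was 17.14 and 17.38 in wild type normoxia, 17.10 and 17.35 in wild type hypoxia, 16.81 and 16.21 in knockout normoxia, and 16.80 and 16.19 in knockout hypoxia. It was lower, in every group, in the sample with the higher Egr2 level. Of the 15 tested, 4 differed by over 0.5 in all groups opposite to Egr2, beside 3.08% of all genes. In its direction there were 0, beside 2.78%. Csf1r did not follow the sum, with differences of -0.63, 0.06, -0.65 and -0.80 (replicate 1 minus replicate 2). Nor did Itgam, at 0.50, -0.17, -0.21 and -0.24. Ptprc, the leukocyte surface marker CD45, measured 9.75 and 10.46, 9.61 and 10.52, 9.59 and 8.20, and 9.43 and 8.25 in the same order of groups. Of 5 tested smooth muscle and pericyte markers, only Cnn1, a calponin, passed the limit of 0.5 in the direction of Egr2, at 14.82 and 13.88, 14.63 and 14.00, 13.38 and 14.13, and 13.02 and 14.37. Myh11, the smooth muscle myosin gene, differed by -0.09, 0.15, -0.69 and 0.84 between replicates, Rgs5 by -0.60, -2.08, -0.65 and 1.67, and Acta2 and Tagln were at the top of the scale in every sample. Of the 12 fibroblast markers, 0 differed by over 0.5 in all groups in either direction, and the same held for the 15 HIF targets. The part of these cell types in the early response differences was not tested.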

How the data were processed

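RNA was labelled with Cy3 and hybridised to 1-colour arrays, 8 in all. The authors deposited log2 intensities for 62976 spots, 10 values missing, and limma is the tool named in the submitters' processing notes. The background correction and normalization are not given in the sources used here. Spots were named from the platform annotation, updated through RefSeq. A gene is represented by its brightest spot, and 43941 spots had 1 gene. The dimmest 30% of genes were removed, which left 17014. Group means were fitted with limma 3.58.1 in R 4.3.3 (lmFit and eBayes, 4 residual and 2.25 prior degrees of freedom), with Benjamini-Hochberg adjustment over all genes. The script was tested on simulated data. Sample values are given for genes past an unadjusted p of 0.05 and for the 3 largest differences in the hypoxia average, the genotype average and the difference of responses; outside the 34, the genes named from a list are among those with its smallest p. The genes described for the replicate split, and Ier5, were added after their values were seen. The members and lists were chosen with earlier results of these data known. Precision is limited by the 2 arrays per group. Alternatives covered scaling, filter, spot choice, variance model, blocks and each sample left out.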

Additional observations from a re-analysis of the deposited data

How the results depend on the processing

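Sik1, Ier3, Atf3, Fos, Dusp6, Fosl1, Fosb, Egr3, Nr4a3 and Nr4a1, in the comparisons in which they were named for size or p, kept their direction under each alternative run. The other genes were not followed one by one. Sik1 had an adjusted p of 0.0309 with an intensity-dependent variance and of 0.0336 with the culture replicate block as a random effect, so that 1 of the 34 genes was called in the average hypoxia comparison under each, and 15 of all genes. Under the other alternatives and with each sample left out, 0 of 34 were called in every comparison.

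Counts at an unadjusted p under 0.05 moved more. For hypoxia in wild type the count was 2, and it was 4 with the mean over spots, 4 with the random culture replicate block, 5 with the crossed replicate block and 6 with the fixed culture replicate block, which was chosen after seeing the data. For hypoxia in the knockout it was 2, and 4 with the crossed and with the fixed block. In the average it was 4, and 9 with either of these. Between genotypes in normoxia it was 1, and 0 with the replicate block, with the 75th percentile scaling and with only the groups compared, and 4 with the crossed block. In hypoxia it was 0, and 1 with the replicate block, with only the groups compared, with the variance trend and with 50% of genes removed, and 6 with the crossed block. The average was 1, and 8 with the crossed block. For the difference of responses the count was 0, and 1 with the crossed and with the fixed block. Counts over all 17014 genes rose with the crossed block too. They went from 1693 to 3113 in the genotype average and from 1102 to 2189 between genotypes in normoxia. Between genotypes in hypoxia they went from 1062 to 2158. For hypoxia in the average they went from 639 to 1211, and to 1238 with the fixed block. The rises were thus not confined to the early response genes. The cause of these moves was not tested. By construction, the crossed block and the fixed culture block take out a replicate difference that is turned between genotypes. The plain replicate block takes out only a difference shared by same-numbered samples of both genotypes. The crossed block joined wild type replicate 1 with knockout replicate 2. No label gives that pairing, and it follows the replicate differences seen in these same data.

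With each sample left out, these counts ran from 2 to 4 for hypoxia in wild type, 1 to 4 in the knockout, 2 to 5 in the average, 0 to 2 between genotypes in normoxia, 0 to 2 in hypoxia, 1 to 3 in the average, and 0 to 1 for the difference of responses. Over all genes, the genotype average called 8, against 453 with the crossed block, 62 with the variance trend, 45 with 50% removed, and 1 with the replicate block and with the random culture block. With 1 library left out it called 12 without knockout hypoxia replicate 2, 3 without wild type hypoxia replicate 1 and 1 without any of the other 6. Without knockout hypoxia replicate 2 7 genes were called for hypoxia in the knockout and 7 for the difference of responses, against 0.

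Replicate differences over all genes correlated at 0.308 between the wild type groups and 0.338 between the knockout groups, but from -0.378 to -0.262 across genotypes. Samples with the same number were thus not alike across genotypes in these differences. How samples were prepared or paired is not given, and the blocks are a hint from the data, not the design. Other low genes (Egr3, Fosb, Dusp2, Nr4a3) have no detection call, which limits what their values show.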
